A study of Mus musculus with 12 samples.

Results

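The genes described here are 10 melanin synthesis and melanosome genes of the mouse (Pmel, Mlana, Tyrp1, Tyr, Dct, Oca2, Slc45a2, Slc24a5, Gpr143 and Mitf), found by symbol among the 25655 genes of the deposited tables. The set was chosen by measured values of these same libraries, namely lower levels in treated retinas than in retinas given PBS, so the differences from PBS below are a description and carry no test. Whole retinas of C57BL/6J mice, a pigmented strain, aged 8 to 10 weeks, were collected 2 days after optic nerve crush (ONC), a compression of the optic nerve behind the eye. Every animal had ONC and a single intravitreal injection of PBS (the control), fluvastatin (an inhibitor of HMG-CoA reductase), MBV (matrix-bound nanovesicles, prepared from porcine bladder matrix) or both agents together, with 3 libraries in each of 4 groups. The 3 libraries each of PBS, fluvastatin and MBV were analysed, and the combined treatment was not analysed here, since its count columns carry no library name.

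Melanin is made in melanosomes, organelles related to lysosomes, which mature on fibrils of the PMEL protein and then receive the enzymes that turn tyrosine into pigment. Transporters and channels of the melanosome membrane set its pH and ion content, and the transcription factor MITF drives many of these genes in pigment cells. In the eye, melanin lies in the retinal pigment epithelium behind the photoreceptors, in the pigmented epithelia of the ciliary body and iris, and in melanocytes of the choroid and iris stroma, while the neural retina itself makes none.

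MITF binds the M-box, a sequence with the core CATGTG that was described from promoters of the tyrosinase family. RefSeq promoter windows (table build GRCm38.p6) were at hand for 6 of the 10 genes, but not for Pmel, Mlana, Slc45a2 and Gpr143. All 8 windows of the 6 genes, 3 of them from Mitf, matched GRCm39 once without mismatch. In the 250 bases before the start, the 6 letters CATGTG, searched on both strands (CACATG on the other), occurred in windows of 5 of the 6 genes and in none of the Mitf windows. Of all 32851 windows of that length, 12.3% held them. Among the genes with a match, Tyr, Tyrp1 and Dct had much lower reads with treatment, and Oca2 and Slc24a5 differed less. This division was made after the values were seen, and it lacks Pmel and Mlana, the members that differed most from PBS. The 30 bases around each match are shown because they let the flanks of the core be compared between genes. They are written on the strand that reads CATGTG, with the core in capitals.
Tyr: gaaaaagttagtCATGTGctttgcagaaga
Tyrp1: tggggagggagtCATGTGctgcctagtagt
Dct, near match: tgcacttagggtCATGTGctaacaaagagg
Dct, far match: ctttattgggctCATGTGtcccagccaagc
Oca2: gaaaattccagcCATGTGtagcaagctcaa
Slc24a5: cttatgctgaatCATGTGagcagtctcctt
The stretches lie on GRCm39 at chr7:87142724-87142753 for Tyr, chr4:80752392-80752421 for Tyrp1, chr14:118289791-118289820 and chr14:118289873-118289902 for Dct, chr7:55889309-55889338 for Oca2 and chr2:124910022-124910051 for Slc24a5. The printed strand is the minus strand except for Tyrp1 and the far Dct match. The cores begin 21 bases before the RefSeq start of Tyr, 46 before that of Tyrp1, 150 and 232 before that of Dct, 186 before that of Oca2 and 13 before that of Slc24a5, each counted along the gene. The core with its flanks in Tyr, the 11 letters AGTCATGTGCT (AGCACATGACT on the other strand), was also present in Tyrp1, and in 7 of the 32851 windows in all, or 0.0213%. The near Dct match shared 10 of the 11 letters, the Oca2 and Slc24a5 matches 8, and the far Dct match 7. The sequence CACGTG, another E-box read the same on both strands, was in none of the members' windows and in 6.02% of all windows. These matches describe letters only.

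Between 21349516 and 30992040 reads were assigned to genes in each library. Levels are given as CPM, the count of a gene relative to its library's total, on library sizes scaled by TMM, a correction for differences in composition, and precision is limited by 3 libraries a group. The labels number the PBS libraries in one series of library numbers and the fluvastatin and MBV libraries in another. In these groups, a difference from PBS and a difference between the library sets therefore cannot be told apart. The combined treatment's libraries are numbered in the same series as PBS, but were not analysed here. Of the members, the paper's list of genes changed by that treatment against PBS holds Pmel, Mlana, Tyrp1 and Dct, each lower. This too is a description, since the members were chosen for lower levels in treated retinas. Fluvastatin and MBV lie within one set and were compared by a test. All differences from PBS share the same 3 PBS libraries. In bulk retina, fewer cells of a type and less RNA per cell cannot be told apart.

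Per kilobase of exon, Dct had the highest level in PBS libraries with 10.2 ± 2.53 CPM per kb (SD, n = 3), followed by Tyrp1 with 8.86 ± 1.61 and Pmel with 8.36 ± 1.08. The ranges of these neighbours overlapped. Mlana came next at 3.45 ± 1.12, then Tyr at 1.41 ± 0.347 and Mitf at 1.28 ± 0.154 CPM per kb, the last pair overlapping in range. Slc24a5 had 0.989 ± 0.0867, Oca2 0.452 ± 0.0131, Slc45a2 0.248 ± 0.0344 and Gpr143 0.152 ± 0.0527 CPM per kb, and the ranges of neighbours did not overlap there. The order differed in treated libraries. Mitf, with 1.22 CPM per kb on average in either treatment, stood above Mlana (0.641 with fluvastatin and 0.437 with MBV) and Tyr (0.416 and 0.305).

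The structural proteins of the melanosome were among the members with the lowest relative levels after treatment. Pmel, which forms the fibrils on which melanin is laid down, lies on chromosome 10 from 128540064 to 128556107 of GRCm39. It had 20.8, 16.3 and 20.4 CPM with PBS, 5.31, 4.86 and 4.11 CPM with fluvastatin, and 3.40, 2.51 and 4.71 CPM with MBV. Every treated library was below every PBS library. The log2 difference from PBS was -2.01 (SE 0.126) with fluvastatin and -2.44 (SE 0.185) with MBV, or 4.02-fold and 5.43-fold lower. The gene span of Pmel overlaps those of Cdk2 and Dgka on the opposite strand, and whether their exons overlap was not examined. How the counting treated strand is not given in the sources used here, so some Pmel reads may belong to these neighbours. Mlana, a small melanosome membrane protein that takes part in PMEL maturation, had 4.03, 2.73 and 5.36 CPM with PBS, 1.24, 0.336 and 0.678 with fluvastatin, and 0.183, 0.411 and 0.941 with MBV. These levels rest on 80 to 141 counts per PBS library and on 5 to 30 counts per treated library. Again no treated library reached the PBS range. Its log2 differences of -2.43 (SE 0.380) and -3.00 (SE 0.453) had the largest size among the 10 genes and the widest errors among the enzymes and structural proteins.

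**Figure D1:**
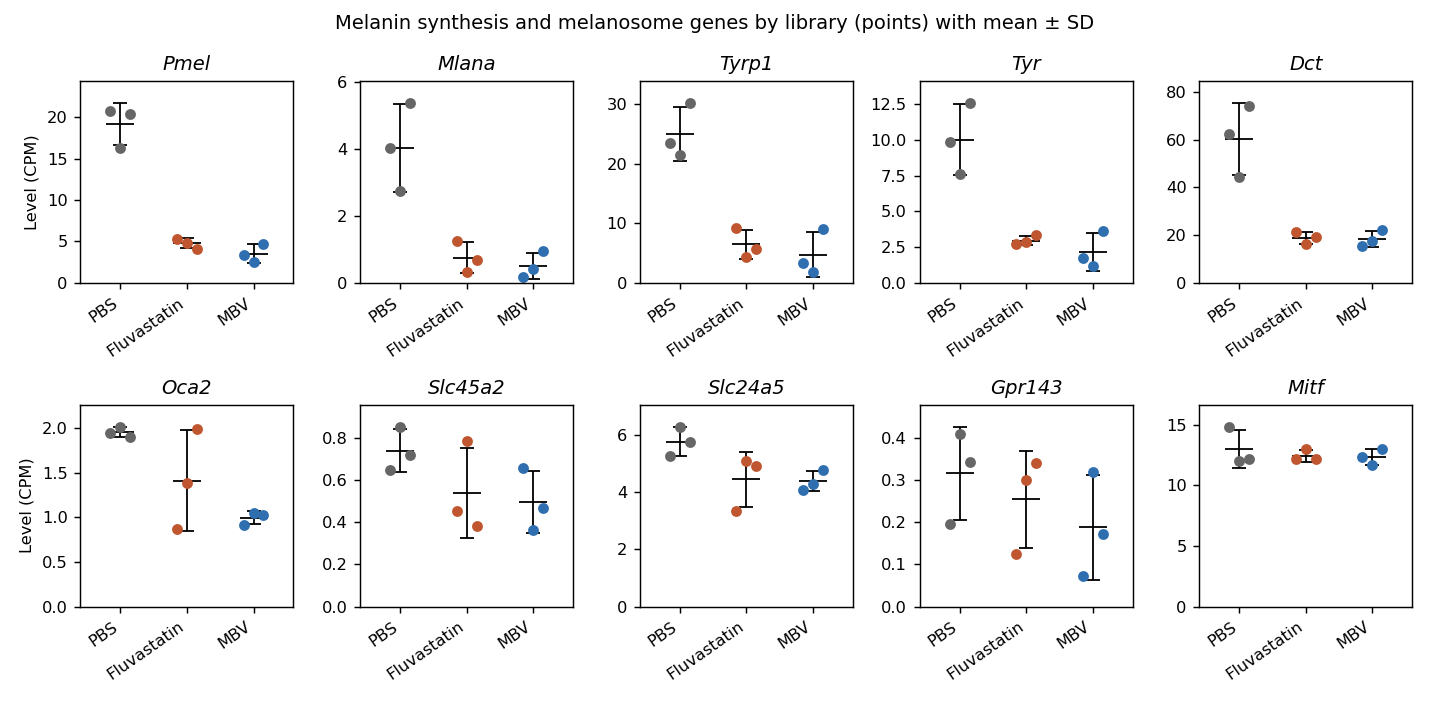
Level in CPM (linear axis from 0) of each of the 10 genes in each of the 9 libraries, with PBS in grey, fluvastatin in orange and MBV in blue; points are libraries and black bars the mean ± SD of 3. In the panels of Pmel, Mlana, Tyrp1, Tyr and Dct the treated points sit far below the PBS points, whereas Mitf holds 11.6 to 14.8 CPM throughout.

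The enzymes of melanin synthesis were lower in the same direction. Tyr encodes tyrosinase, which catalyses the first and rate-limiting step, and lies on chromosome 7 from 87073979 to 87142720. Tyr had 9.85, 7.61 and 12.5 CPM with PBS, 2.72, 2.84 and 3.31 with fluvastatin, and 1.72, 1.14 and 3.64 with MBV. The fluvastatin libraries were close to one another, and MBV replicate 3 stood above the other two MBV libraries. The log2 difference was -1.76 (SE 0.183) with fluvastatin and -2.21 (SE 0.339) with MBV. Tyrp1, the tyrosinase-related protein that acts on a late intermediate of the brown-black pigment (chromosome 4, 80752360 to 80769956), had 23.6, 21.4 and 30.2 CPM in PBS libraries, 9.23, 4.41 and 5.77 CPM after fluvastatin, and 3.29, 1.83 and 9.03 CPM after MBV. Fluvastatin replicate 1 and MBV replicate 3 were its highest treated libraries. Its log2 differences were -1.96 (SE 0.218) and -2.42 (SE 0.401). Dct, or dopachrome tautomerase, which feeds that intermediate (chromosome 14, 118250202 to 118289656), had 62.3, 44.3 and 74.0 CPM with PBS, 21.2, 16.3 and 19.2 with fluvastatin and 15.5, 17.4 and 21.9 with MBV. The 6 treated Dct libraries held a narrow range. Dct was 3.19-fold lower with fluvastatin (log2 difference -1.67, SE 0.163) and 3.31-fold lower with MBV (-1.73, SE 0.183).

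The transporters and channels of the melanosome membrane differed far less from PBS. Slc24a5, a potassium-dependent sodium/calcium exchanger, had 5.26, 6.28 and 5.77 CPM with PBS, 3.34, 5.08 and 4.92 with fluvastatin, and 4.09, 4.29 and 4.79 with MBV. The groups did not overlap, but the gap was small, with log2 differences of -0.38 (SE 0.166) and -0.40 (SE 0.129). Slc24a5 overlaps Myef2 on the other strand, with the same limit as for Pmel. Oca2, a melanosomal membrane protein that raises the pH of the organelle, had 1.95, 2.01 and 1.90 CPM with PBS, 0.865, 1.38 and 1.99 with fluvastatin, and 0.914, 1.05 and 1.03 with MBV. The MBV libraries lay below PBS at a log2 difference of -0.98 (SE 0.203), and fluvastatin replicate 3 lay within the PBS range. Its levels rest on 21 to 47 counts per treated library. Slc45a2, a transporter that also bears on melanosome pH, had 0.650 to 0.853 CPM with PBS, 0.382 to 0.785 with fluvastatin and 0.365 to 0.658 with MBV, and its ranges overlapped. Its log2 differences were -0.44 (SE 0.350) and -0.56 (SE 0.332), from 8 to 25 counts per library. Gpr143, the ocular albinism receptor of the melanosome membrane, had 2 to 12 counts per library, and its log2 differences of -0.30 (SE 0.513) and -0.78 (SE 0.589) had errors of similar size. Gpr143 was the single member that did not pass a minimum of 10 counts in 2 libraries.

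Mitf, the transcription factor of pigment cells, differed least. It had 14.8, 12.0 and 12.2 CPM with PBS, 12.2, 13.0 and 12.1 with fluvastatin and 12.4, 11.6 and 13.0 with MBV. The ranges overlapped in full, and the log2 differences were -0.07 (SE 0.0979) and -0.08 (SE 0.0980). Over all exons of the gene (10.145 kb), the counts do not separate the promoters from which Mitf isoforms start.

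All 10 genes had a negative log2 difference from PBS in both treatments, from -2.43 to -0.07 with fluvastatin and from -3.00 to -0.08 with MBV. Their median was -1.07 with fluvastatin and -1.36 with MBV, beside medians of -0.01 and 0.01 over all genes tested. In 6 of the 10 with fluvastatin and 7 with MBV, all 3 treated libraries were below all PBS libraries, which held for 19.3% and 21.0% of all genes tested. At an adjusted p (FDR) under 0.05, the lower calls made up 10.2% of the 18818 genes tested for fluvastatin and 14.1% of the 18897 tested for MBV, and the higher calls 9.36% and 12.0%. Since the members were selected for this contrast, nothing is read from their share. The values fall into a steep group (Pmel, Mlana, Tyrp1, Tyr and Dct, at -1.67 or lower in both treatments) and a shallow group (the other 5, at -0.98 or higher), a division made after the values were seen.

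**Figure D2:**
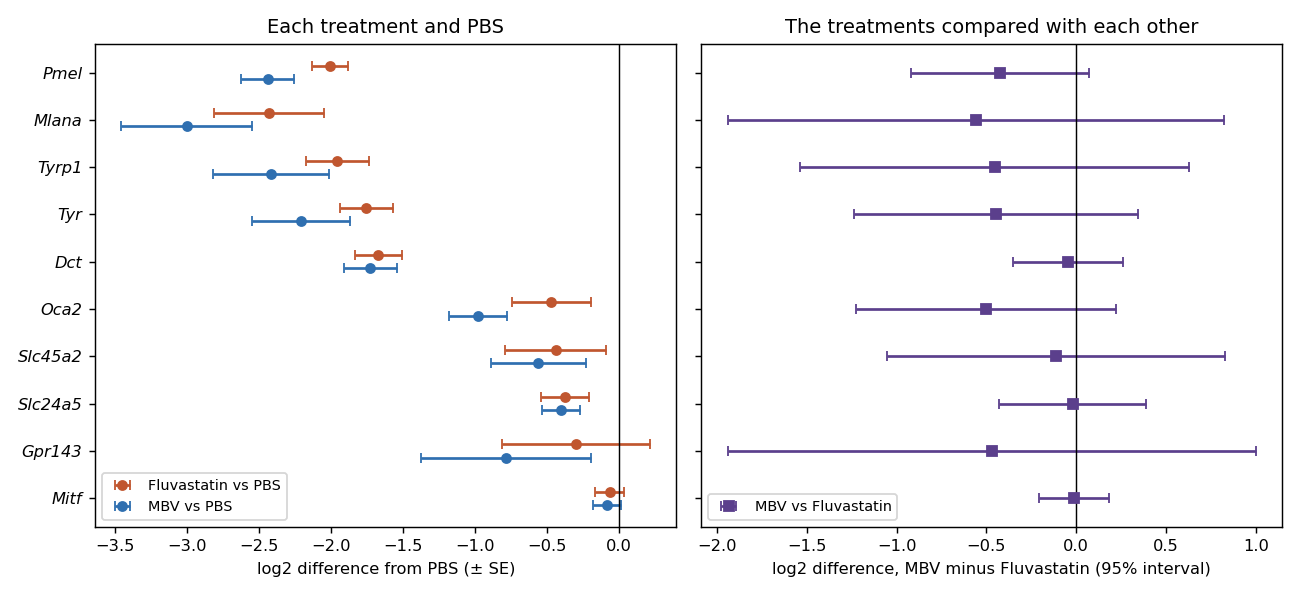
Left, log2 difference from PBS of each gene with its SE, for fluvastatin (orange) and MBV (blue); right, log2 difference of MBV from fluvastatin with its 95% interval. On the left 5 genes lie at -1.67 or lower in both treatments, and on the right every interval includes 0.

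The contrast of MBV with fluvastatin took no part in the choice of the members. None of the 10 passed edgeR's quasi-likelihood test at an FDR under 0.05, none had an unadjusted p under 0.05, and DESeq2 called 0 as well. Over all 18721 genes the test called 11, or 0.0588%, and 2001 had an unadjusted p under 0.05. All 10 log2 differences of MBV from fluvastatin were below 0, from -0.56 to -0.01, with a median of -0.44 beside 0.01 over all genes. This sign was not particular to the members. Of the marker lists described below, 13 of 14 pigment epithelium and 4 of 5 ciliary body and iris markers were also below 0. In contrast, 0 of 7 lens and 0 of 7 myeloid markers were. The smallest adjusted p of a member was 0.524, for Pmel, at a log2 difference of -0.43 with a 95% interval of -0.92 to 0.07. For Tyr the difference was -0.45 (interval -1.24 to 0.34, adjusted p = 0.682), for Tyrp1 -0.45 (-1.54 to 0.63, adjusted p = 0.731) and for Mlana -0.56 (-1.94 to 0.82, adjusted p = 0.745). These 3 intervals run from below -1 to above 0, so the data do not show that the treatments act alike on them. The intervals were narrow for Dct, -0.35 to 0.26 around -0.05 (adjusted p = 0.921), and for Mitf, -0.21 to 0.19 around -0.01 (adjusted p = 0.984). Without MBV replicate 3 the smallest adjusted p became 0.0762, for Tyr, at a log2 difference of -1.03.

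Within a library, ratios between members do not depend on the library size. The ratio of Tyr to Mitf counts was 0.633 to 1.03 in PBS libraries, 0.219 to 0.273 with fluvastatin and 0.0980 to 0.280 with MBV. The ratio of Tyrp1 to Mitf counts was 1.59 to 2.48, 0.340 to 0.759 and 0.157 to 0.694 in the same order. In both, the PBS and treated ranges were apart. The ratio of Dct to Tyrp1 counts was 2.07 to 2.64 with PBS. It was 2.29, 3.70 and 3.32 in fluvastatin replicates 1, 2 and 3, and 4.71, 9.55 and 2.43 in MBV replicates 1, 2 and 3. Fluvastatin replicate 1 and MBV replicate 3 lay within the PBS range, and the other treated libraries lay above it.

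**Figure D3:**
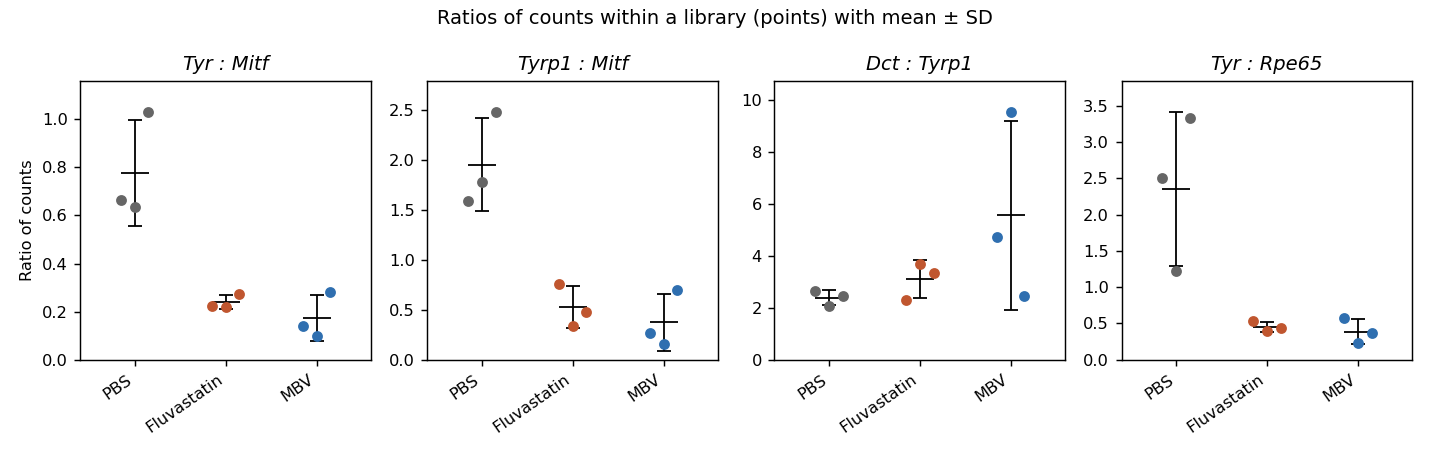
Ratios of counts between genes within each library (linear axes from 0), with libraries as points and mean ± SD of 3 as bars. Tyr and Tyrp1 relative to Mitf, and Tyr relative to Rpe65, are lower in every treated library than in every PBS library, and the Dct to Tyrp1 ratio spreads from 2.43 to 9.55 with MBV.

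Of 58 other pigment pathway genes listed (melanosome biogenesis and trafficking, other melanosome proteins, and regulators of pigment cells), 57 were tested. With fluvastatin 6 were lower and 5 higher at an FDR under 0.05, and the median log2 difference was -0.06. With MBV 9 were lower and 6 higher, with a median of -0.03. These shares, of 57, were close to those over all genes. When 1 library was left out the fluvastatin counts went from 2 to 10 lower and from 1 to 8 higher, with the highest of both without fluvastatin replicate 1, and the MBV counts from 5 to 15 and from 3 to 10, with the highest of both without MBV replicate 3.

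Among the other melanosome proteins, Gpnmb, the closest relative of Pmel, had 51.4, 40.0 and 55.9 CPM with PBS, 24.2, 16.5 and 19.5 with fluvastatin and 18.3, 15.3 and 21.4 with MBV. Gpnmb fell by 1.29 (SE 0.143, adjusted p = 0.000743) on the log2 scale with fluvastatin and by 1.43 (SE 0.141, adjusted p = 0.000531) with MBV. Gpnmb is also made by phagocytes, and the part of phagocytes in its level was not tested. Of 7 myeloid markers 1 (Lyz2) was lower with fluvastatin and none with MBV. Of the same list of 11 genes, Slc7a11, the cystine transporter, had 38.2, 27.3 and 45.3 CPM with PBS and 30.4, 15.9 and 16.7 with fluvastatin. It was called lower (log2 -0.81, adjusted p = 0.0359) although fluvastatin replicate 1 lay within the PBS range, and the call was lost with DESeq2 and in 4 of the 6 fits that left out 1 library. Bace2, a protease that cuts PMEL, fell with MBV (-1.20, adjusted p = 0.00368) and had -0.62 with fluvastatin (adjusted p = 0.0654). The copper pump gene Atp7a (0.33, adjusted p = 0.00249) and Mfsd12 (0.29, adjusted p = 0.00533) rose with MBV. With fluvastatin these had 0.04 (adjusted p = 0.618) and 0.15 (adjusted p = 0.0825).

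Of the 28 genes of melanosome biogenesis and trafficking, 3 were lower and 2 higher with fluvastatin, and 6 lower and 3 higher with MBV. Mlph, the adaptor that links melanosomes to myosin Va, had 3.09, 1.81 and 3.57 CPM with PBS, 1.65, 0.636 and 0.594 CPM after fluvastatin, and 0.731, 0.868 and 1.37 CPM after MBV. Its log2 difference was -1.56 (SE 0.384, adjusted p = 0.0182) with fluvastatin and -1.52 (SE 0.323, adjusted p = 0.00891) with MBV. Hps3, a subunit of the BLOC-2 complex, fell by less, from 72.5 ± 1.94 CPM to 54.9 ± 1.37 with fluvastatin (log2 -0.40, adjusted p = 0.00104) and 56.6 ± 1.63 with MBV (-0.37, adjusted p = 0.00112). Bloc1s4 fell with fluvastatin (-0.49, adjusted p = 0.0145) and had -0.30 with MBV (adjusted p = 0.0621). Bloc1s6, of the same BLOC-1 complex, fell with MBV (-0.26, adjusted p = 0.0123) and had -0.13 with fluvastatin (adjusted p = 0.206). Rab38, which brings tyrosinase family enzymes to the melanosome and is named here after its values were seen, had log2 differences of -0.89 with fluvastatin (adjusted p = 0.0580) and -0.97 with MBV (adjusted p = 0.0248). Myo7a, the myosin that moves melanosomes in the pigment epithelium, rose in both treatments (0.42, adjusted p = 0.00284, and 0.32, adjusted p = 0.0182). Ap3d1, of the AP-3 adaptor, rose slightly in both (0.18 and 0.15). Hps4, a subunit of the BLOC-3 complex, rose with MBV (0.29, adjusted p = 0.0115) and had a log2 difference of 0.23 with fluvastatin (adjusted p = 0.0539).

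Of the 18 regulators tested, Edn3, the ligand of a melanocyte receptor, fell with fluvastatin, from 1.66, 2.46 and 2.05 CPM to 1.28, 0.0748 and 0.212 (log2 -1.99, adjusted p = 0.0424). With MBV it had 0.585, 0.0913 and 1.45 CPM (-1.53, adjusted p = 0.0759). Sox10, which acts upstream of Mitf in melanocytes, rose with fluvastatin (0.83, adjusted p = 0.0346) from 0.838 ± 0.128 to 1.50 ± 0.121 CPM. Sox10 is also a gene of other neural crest and glial cells. Tfe3, a relative of Mitf that governs lysosomal genes, rose in both treatments (0.19, adjusted p = 0.0348, and 0.21, adjusted p = 0.0352), Tfap2a rose with fluvastatin (0.27, adjusted p = 0.0270), and Atrn fell with MBV (-0.18, adjusted p = 0.00907). With fluvastatin, the call of Sox10 was lost with DESeq2, and those of Edn3, Sox10 and Tfe3 in 1 fit of all 9 libraries.

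Markers of the retinal pigment epithelium did not follow the members. Of 14 such markers, 7 were higher and 2 lower with fluvastatin, and 5 higher and 1 lower with MBV, with median log2 differences of 0.62 and 0.47. Summed over the 6 defining markers (Rpe65, Lrat, Rdh5, Best1, Ttr and Slc16a8), the level was 32.4 to 43.2 CPM with PBS, 44.4 to 93.2 with fluvastatin and 38.6 to 86.3 with MBV. Ttr held the largest part of this sum in every library, and none of the 6 was at 0 in any library. Rpe65, the isomerase of the visual cycle, had 3.93, 6.24 and 3.76 CPM with PBS, 5.15, 7.22 and 7.55 with fluvastatin and 3.00, 5.16 and 10.1 with MBV, with no call (adjusted p = 0.122 and 0.520). Ttr, the carrier of retinol and thyroxine, rose from 20.9 ± 3.24 CPM to 46.6 ± 17.7 with fluvastatin (log2 1.15, adjusted p = 0.00909) and 38.7 ± 13.5 with MBV (0.87, adjusted p = 0.0223). Slc16a8, the lactate transporter of the pigment epithelium, and Rdh5, a retinol dehydrogenase, rose with fluvastatin (1.18, adjusted p = 0.0104, and 0.90, adjusted p = 0.0294), the latter not in 1 fit of all 9 libraries and with fluvastatin replicate 1 (4.70 CPM) inside the PBS range (3.76 to 4.84). Lrat (0.80, adjusted p = 0.0507, and 0.67, adjusted p = 0.175) and Best1 (-0.13 and -0.44) were not called. Stra6, the retinol uptake receptor, rose in both (0.92, adjusted p = 0.00868, and 0.73, adjusted p = 0.0254). Trf, which encodes transferrin, rose in both (0.73, adjusted p = 0.0145, and 0.60, adjusted p = 0.0101), as did the keratin gene Krt18 (0.29, adjusted p = 0.00971, and 0.27, adjusted p = 0.0111). Mertk, the receptor with which the pigment epithelium takes up outer segments, rose with MBV (0.46, adjusted p = 0.00216) and had -0.02 with fluvastatin. Rlbp1, which Müller glia also express, fell in both (-0.29, adjusted p = 0.00218, and -0.39, adjusted p = 0.000560). Enpp2 fell with fluvastatin (-0.41, adjusted p = 0.0220) and had -0.46 with MBV (adjusted p = 0.0851). Krt8, the other keratin gene listed, had -0.67 with fluvastatin (adjusted p = 0.210) and -0.94 with MBV (adjusted p = 0.0738). Enpp2 and Krt8 are named after their values were seen. The ratio of Tyr to Rpe65 counts was 1.22 to 3.33 with PBS, 0.394 to 0.528 with fluvastatin and 0.221 to 0.573 with MBV. The number of higher markers with fluvastatin went from 2 without fluvastatin replicate 2 to 9 without replicate 1, and with MBV from 2 without PBS replicate 1 to 9 without MBV replicate 1.

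Markers of the ciliary body and iris, anterior tissue that includes pigmented epithelia, moved in the direction of the steep members, but with a pattern over libraries shared only in part. These markers were listed with earlier results of these data known, so their calls and medians are a description. Of 5 markers, 1 was lower with fluvastatin (Zic1, log2 -1.22, adjusted p = 0.00935) and 2 with MBV (Zic1, -1.31, adjusted p = 0.00562, and Otx1, -2.14, adjusted p = 0.00712), none was higher, and the medians were -1.22 and -2.05. Their summed level was 87.2 to 94.9 CPM with PBS. With fluvastatin it was 109 CPM in replicate 1 and 34.5 and 30.9 in the others, and with MBV 41.5 and 26.0 in replicates 1 and 2 and 84.6 in replicate 3. Optc, which encodes opticin of the ciliary epithelium and is named after its values were seen, split most widely, with 39.6 CPM in fluvastatin replicate 1 and 15.9 in MBV replicate 3 against 0.804 to 1.68 in the other 4 treated libraries, and 21.8 to 28.2 with PBS. Fluvastatin replicate 1 and MBV replicate 3 were the highest treated libraries for all 5 of these markers, and for 3 of the 10 members, Mlana, Tyrp1 and Dct. Of the other steep members, Pmel was highest among treated libraries in fluvastatin replicate 1, and Tyr in MBV replicate 3. In those 2 libraries Pmel (5.31 and 4.71 CPM) and Dct (21.2 and 21.9 CPM) were still below the lowest PBS library (16.3 and 44.3 CPM). Without fluvastatin replicate 1, the log2 difference of Mlana from PBS was -3.00 and that of Tyrp1 -2.30. Without MBV replicate 3, it was -3.80 for Mlana, -3.26 for Tyrp1, -2.78 for Tyr, -2.69 for Pmel and -1.88 for Dct. The part of these tissues in the members' levels was not tested.

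**Figure D4:**
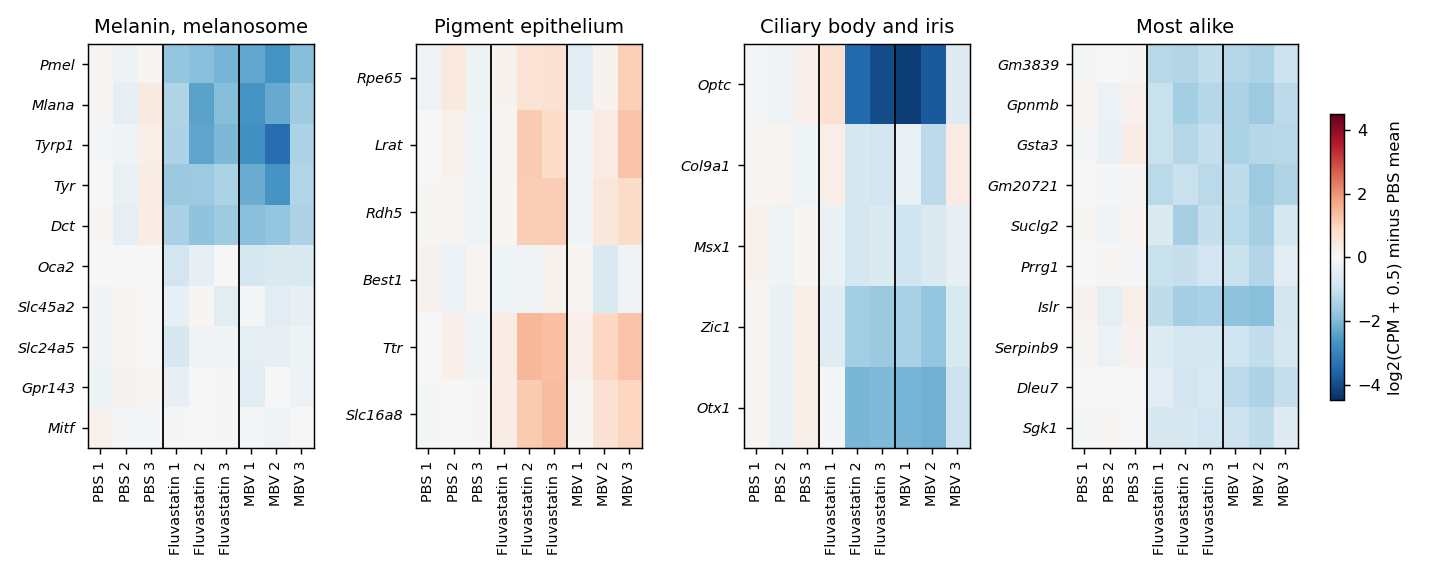
Log2(CPM + 0.5) of each gene in each of the 9 libraries minus its mean over the PBS libraries (blue lower, red higher), for the 10 members, the 6 defining markers of the pigment epithelium, the 5 markers of the ciliary body and iris, and the 10 genes most alike to the members. The top 5 members are blue in all 6 treated libraries, the pigment epithelium markers are mostly pale or red, and the ciliary and iris markers are paler in fluvastatin replicate 1 and MBV replicate 3.

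Other cells that the tissue could hold varied as well. The 7 melanocyte markers summed to 22.2 to 25.2 CPM with PBS, 22.2 to 28.8 with fluvastatin and 22.1 to 36.2 with MBV. There was 1 higher call in each treatment (Sox10 with fluvastatin, and Erbb3 with MBV at log2 0.92, adjusted p = 0.0224) and no lower call. Ednrb (10.5 CPM), Kit (7.30 CPM) and Mc1r (3.74 CPM), named after their values were seen, held most of the sum in PBS libraries. Pax3 had 0 to 3 counts and Mia 0 to 6 counts per library, so the sum rests on few of the markers. The 9 markers of choroid and sclera summed to 49.1 to 57.8, 37.9 to 52.2 and 34.4 to 61.3 CPM, with 4 lower and 1 higher with fluvastatin and 1 lower and 2 higher with MBV. Of the matrix and smooth muscle genes among them, Lum (-2.58, adjusted p = 0.00771), Dcn (-2.16, adjusted p = 0.00455) and Myh11 (-0.97, adjusted p = 0.00258) were lower with fluvastatin and Lum with MBV (-2.21, adjusted p = 0.0323). With MBV, Dcn had -1.54 (adjusted p = 0.0535) and Myh11 -1.05 (adjusted p = 0.0658), not called but of similar direction and size. The collagen gene Col3a1 was higher in both (0.80, adjusted p = 0.0387, and 1.57, adjusted p = 0.00199), and Col1a1 lower with fluvastatin (-0.59, adjusted p = 0.0441) and higher with MBV (0.66, adjusted p = 0.0486). The 7 lens markers summed to 1.90 to 5.78 CPM with PBS, 2.63 to 17.6 with fluvastatin and 49.3 to 131 with MBV, with 1 lower with fluvastatin (Bfsp2, -1.11, adjusted p = 0.0186) and 6 higher with MBV. The crystallin genes Crygs (5.63, adjusted p = 0.000828), Cryaa (5.38, adjusted p = 0.000599) and Crybb2 (5.30, adjusted p = 0.000657) and the lens channel gene Mip (3.40, adjusted p = 0.0193) were among the latter. The 5 surface epithelium markers summed to at most 5.94 CPM in any library, with 3 keratin genes lower with MBV (Krt15, -2.52, adjusted p = 0.0317, Krt5, -1.90, adjusted p = 0.0362, and Krt12, -1.50, adjusted p = 0.0440) and none called with fluvastatin. The 7 myeloid markers summed to 152 CPM in MBV replicate 3 and to 31.0 to 56.5 in the other 8 libraries, with 1 lower with fluvastatin (Lyz2, -1.31, adjusted p = 0.0240) and none called with MBV. Of 9 neural retina markers, 4 were lower with fluvastatin and 3 with MBV, the others were not called, and the medians were -0.09 and -0.12. The photoreceptor gene Sag was lower in both treatments (-0.33, adjusted p = 0.0264, and -0.51, adjusted p = 0.00314), and Glul of Müller glia with fluvastatin (-0.85, adjusted p = 0.0448). With MBV, Glul had -0.94 (adjusted p = 0.0727). With DESeq2 the fluvastatin calls of Col3a1, Col1a1, Bfsp2 and Glul were lost. In 1 fit of all 9 libraries those of Myh11, Col1a1, Bfsp2, Sag, Glul and Lyz2 were lost, and with MBV those of Krt5 and Krt12. The part of these cells in the members' levels was not tested.

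The genes whose profile was most like that of the members were found over the 9 libraries among 13963 genes with a mean of at least 1 CPM, by the root mean square difference in centred log2(CPM + 0.5) from the mean profile of the 9 members with at least 10 counts in every PBS library. The profile is led by the PBS difference for which the members were chosen, so this is a description. Gm3839 came closest with a root mean square difference of 0.141, followed by Gpnmb (0.148), Gsta3 (0.170), Gm20721 (0.191), Suclg2 (0.197), Prrg1 (0.215), Islr (0.218), Serpinb9 (0.218), Dleu7 (0.221) and Sgk1 (0.221). Gm3839 had 1.92, 2.08 and 2.13 CPM with PBS, 0.577, 0.523 and 0.678 with fluvastatin and 0.548, 0.457 and 0.813 with MBV. Gsta3, a glutathione transferase, had 2.97 to 4.94 CPM with PBS, 1.23 to 1.61 with fluvastatin and 1.10 to 1.28 with MBV. Sgk1, a kinase induced by serum and glucocorticoids and the most abundant of the 10, had 267 to 283 CPM with PBS, 150 to 167 with fluvastatin and 124 to 182 with MBV. Gm20721 overlaps Gnas, Dleu7 overlaps Rnaseh2b on the other strand, and Islr overlaps Islr2 and Gm47174 on its own strand, so their reads may be shared. Of the known pigment genes outside the members, Gpnmb was the single one in this list.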

How the data were processed

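The authors extracted total RNA from injured retinas, prepared TruSeq Total RNA libraries, sequenced paired 75-base reads, aligned them to GRCm39 and counted reads per gene with CLC Genomics Workbench. The strand setting of the counting is not given in the sources used here. The 4 deposited tables hold raw counts per gene without normalization, and also fold changes, p-values and FDRs of the authors' own comparisons, which were not used. Columns that name a library gave the counts of 9 libraries, and copies of these columns held the same values. Another 6 count columns, in the combined treatment's table, name no library. They were left out, and the comparisons planned with that treatment were not run.

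For each pair of groups, every gene with any read in the 6 libraries was scaled by TMM and tested by edgeR 4.0.16 (R 4.3.3), with its quasi-likelihood test and Benjamini-Hochberg adjustment over all genes, and called at an FDR under 0.05. The procedure was tested on simulated data with 200 changed genes per comparison, drawn from well counted genes. It recovered 92.9% to 100% of the genes changed 2-fold or 4-fold. It also made 21 or 22 false calls in each comparison. Each SE is the size of the log2 difference divided by the square root of the test's F statistic. Intervals (95%) use this SE and the fit's degrees of freedom. The labels number the replicates, but do not say that equal numbers share an animal or day. The study prepared each condition in triplicate, calls its samples biological replicates and crushed 1 eye per mouse. Whether retinas were pooled within a library is not given in the sources used here. Tables were made with Python 3.11.15, pandas 2.3.3 and scipy 1.17.1. Exon lengths were taken from GENCODE mouse release 39. Positions were taken from the deposited tables, and overlaps are those of whole gene spans at these positions.

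The members and all gene lists were chosen with earlier results of these data known. Named are the 10 members, in each other list the genes called against PBS, at most 4 with the smallest FDR per list and comparison, the 6 defining pigment epithelium markers, and the 10 genes most alike. Some neural retina markers that this rule names are not reported here. Alternatives were DESeq2 1.42.0, library totals in place of TMM, a minimum of 10 counts in 2 libraries, 1 fit of all 9 libraries, a replicate block, and leaving out each library in turn.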

Additional observations from a re-analysis of the deposited data

How the results depend on the processing

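The median log2 difference of the members from PBS was -1.67 with fluvastatin and -1.72 with MBV under a minimum of 10 counts in 2 libraries, by construction, since Gpr143 then drops out and 9 genes remain. Leaving out 1 library gave medians of -1.24 to -0.99 with fluvastatin and -1.54 to -1.27 with MBV. No result that answers a comparison reversed. Same-numbered libraries did not deviate together (correlations of -0.393 to 0.175 across genes), so the numbers were not taken as pairs. With the replicate block 3 other pathway genes were higher with fluvastatin in place of 5, and MBV against fluvastatin had 0 calls over all genes in place of 11. It moved no other count of pathway genes or pigment epithelium markers by over 1.5 times. One fit of all 9 libraries left 1 lower pigment epithelium marker with fluvastatin in place of 2. With 1 library left out, pathway genes numbered 2 to 10 lower and 1 to 8 higher with fluvastatin, and 5 to 15 lower and 3 to 10 higher with MBV. Pigment epithelium markers numbered 1 to 2 lower and 2 to 9 higher with fluvastatin, and 1 to 2 lower and 2 to 9 higher with MBV. The cause of these shifts was not tested. For MBV against fluvastatin over all genes, DESeq2 called 126, 1 fit of all libraries 38, the 10-count minimum 5, and leaving out 1 library 0 to 197, the most without MBV replicate 3. Members were called 0 times in every one of these. Removing single libraries turned the sign of Mitf and of Gpr143 against PBS, and of Mlana, Dct, Slc45a2, Slc24a5 and Mitf between MBV and fluvastatin, all small or poorly counted differences. The comparisons planned with the combined treatment were not run. Counts of 30 or fewer limit Mlana, Slc45a2 and Gpr143 in all treated libraries, Oca2 in 4 of 6 and Tyr in 1.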
